A study of Danio rerio with 72 samples.

Results

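The 10 transcription factors described here are myb, runx1, gata2a, gata2b, tal1, lmo2, ikzf1, spi1b, cebpa and gfi1aa. They were chosen by name as regulators of blood progenitor cells, with earlier results of these data known. All 10 stood among the 25067 protein-coding genes of the deposited tables. The tables hold RNA-seq of zebrafish tails, frozen at 52 hours post fertilization, sectioned, stained with cresyl violet and laser captured. Each section gave 6 captures, named CA for the caudal artery, CV for the caudal vein, CVP for the plexus of the caudal vein, N for neural tissue, and L and R for left and right muscle. The vascular captures are called the CHT here, for caudal hematopoietic tissue. No treatment, genotype or strain is given in the labels. Within a section, the labels set the captures apart by place alone. The libraries fall into series M, with sections at layers 2, 6, 8, 12, 15 and 17, and series Z, with sections at layers 1, 6, 10, 19, 22 and 25. What M and Z stand for, and which embryo a section came from, the labels do not say. The p-values between regions measure the spread of libraries left after region and section means, pooled over all 6 regions. They count the captures of a section as separate values. Where sections come from a common embryo, those p-values are too small.

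In the zebrafish embryo, blood stem and progenitor cells arise from the wall of the dorsal aorta and settle in the CHT, where they divide and mature into red cells, myeloid cells and other lineages. Runx1 and Myb are needed for the forming and upkeep of the stem cells, and Tal1, Lmo2 and Gata2 proteins act together in the blood and vessel precursors of the early embryo. Ikzf1 is best known for lymphoid development, Spi1b (Pu.1) and Cebpa drive the myeloid lineages, and Gfi1 proteins are repressors that act in stem cells and white cells. In the spinal cord, gata2a and tal1 also take part in the making of inhibitory interneurons.

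Values are FPKM, which corrects the read count of a gene for its length and for the total of the library. Whole reads could be read back from them, so an FPKM of 0 means that no read was counted. Series M had 75069 to 875598 reads a library. Series Z reached from 91122 to 4011028. In series Z, left muscle of layer 6 equalled the mean of the layer 1 and layer 10 libraries, rounded up, at all 7859 genes compared. It was left out, which leaves 71 libraries and 5 of left muscle in series Z. The neural captures held a neural marker. The neural gene elavl3 had a median FPKM in N of 657 (series M) and 901 (series Z) and at most 1.57 FPKM in any other region's median. Of the vascular captures, CV of series M was the weakest in endothelial genes. The summed FPKM of 18 such genes there had a lowest of 4.63 and a median of 192, against medians of 799 in CA and 1668 in CVP. Skeletal muscle genes were not limited to L and R, since their summed FPKM had a median of 18253 in CA of series M and 28505 in CA of series Z, against 1327 and 229 in CV. In CVP the medians were 4330 (series M) and 570 (series Z), and in N 295 and 2101. The CA libraries of layers 8, 15 and 17 of series M and the CVP library of its layer 17 resembled the mean profile of another region more than that of their own. In series Z the same held for the CVP libraries of layers 22 and 25 and the CV library of layer 25. CA of layer 8 of series M was closest to muscle (Pearson r of 0.557, against 0.509 with CA). The others were closest to another vascular capture.

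Reads of the 10 genes were few. runx1 was counted in 2 of 36 libraries of series M, with 5 reads in all, and in 4 of 35 libraries of series Z, with 14 reads. gata2b had reads in 5 and 7 libraries, and gfi1aa in 4 and 7. lmo2 and cebpa had reads in most libraries of the CHT, 18 of 18 each in series Z and 10 and 15 of 18 in series M. In CVP the 10 genes had reads in 58.3% of their gene and library pairs in series M and in 75.0% in series Z, where all genes of the tables had 44.7% and 47.7%. In muscle the order turned round, with 13.3% in L and 13.3% in R of series M against 31.6% and 29.3% of all genes, and 14.0% and 8.33% in series Z against 33.6% and 26.4%. The order also turned round in CV of series M, with 20% against 29.3%, and in its N, with 51.7% against 67.9%. CA of series M had 35% against 29.7%. In series Z, CA had 61.7% against 33.3%, CV 53.3% against 41.6% and N 61.7% against 59.5%. These shares are counts over few genes and carry no test.

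**Figure D1:**
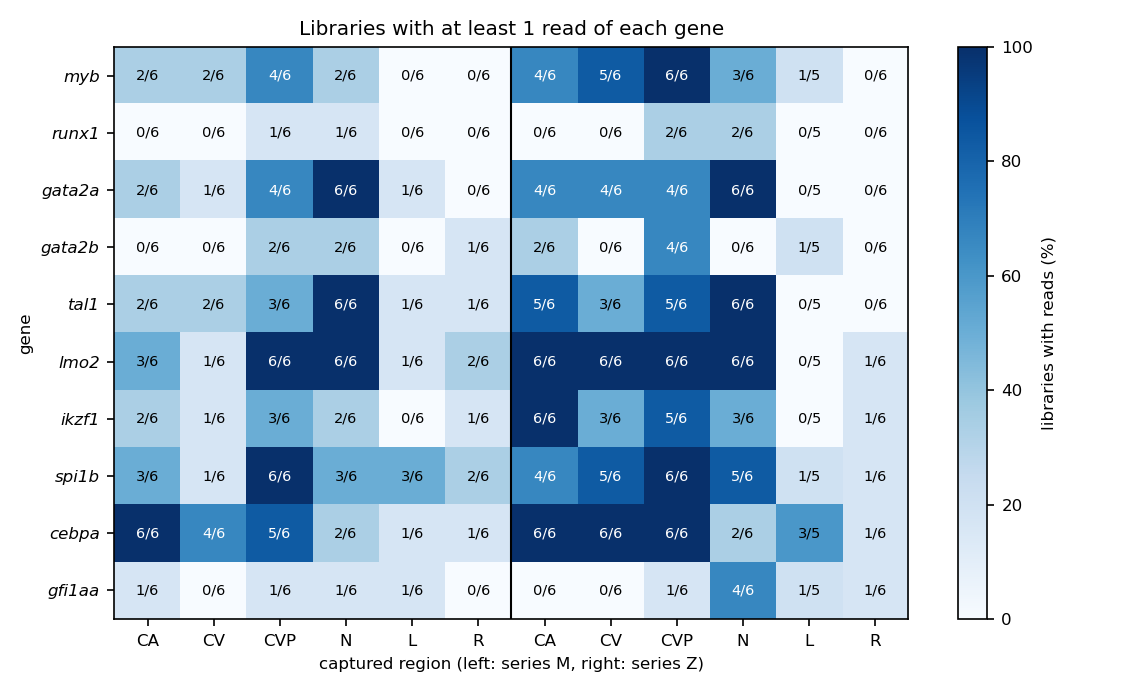
Number of libraries with at least 1 read of each gene (rows) in each captured region (columns; series M on the left, series Z on the right), shaded by the percentage of libraries. lmo2 and cebpa fill all 18 CHT libraries of series Z, lmo2, tal1 and gata2a fill all 12 neural libraries, and runx1, gata2b and gfi1aa are at 0 in most libraries.

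**Figure D2:**
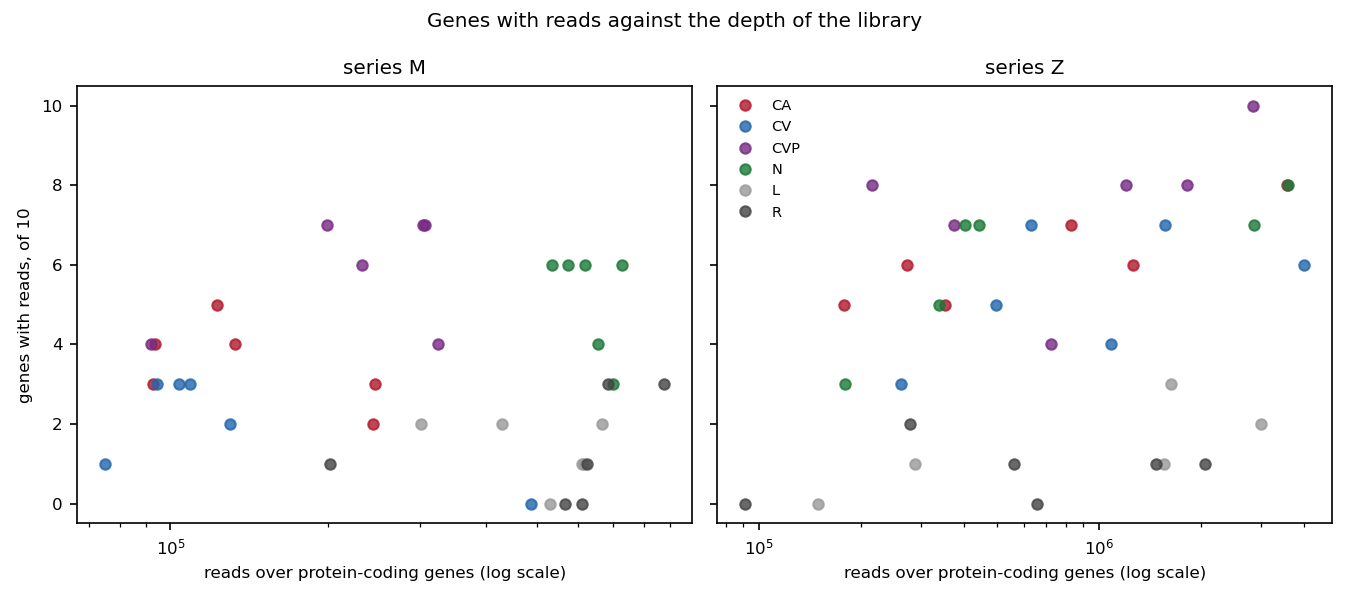
Number of the 10 genes with reads (vertical axis) against the reads of the library over protein-coding genes (horizontal, log scale), by captured region, in series M and Z. The muscle libraries have 0 to 3 of the genes at depths that overlap those of the vascular libraries, and 1 CVP library of series Z has all 10.

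The comparisons between regions were made within each series by limma on log2(FPKM + 1), with the section as a block, and a gene is called where its p-value, adjusted over all genes tested, is under 0.05. A gene was tested where 6 or more libraries of the series had an FPKM of 1 or more, which took in 7 of the 10 genes in series M and 9 in series Z. runx1 passed in neither series, and gata2b and gfi1aa did not pass in series M. In bulk captures, fewer cells of a type and less RNA per cell cannot be told apart. All differences below are on the log2(FPKM + 1) scale, which understates the change of low genes.

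Against muscle, most of the tested genes were called higher in the CHT, as a share of the library. In series M 5 of the 7 tested genes were called higher and none lower, where 19.1% of all genes tested were called higher and 5.35% lower. In series Z 7 of 9 were called higher and none lower, where 22.1% of all genes were called higher and 4.11% lower. myb, gata2a, lmo2, spi1b and cebpa were called in both series, and tal1 and ikzf1 in series Z. The filter counts libraries of any region, so a gene can enter by its CHT libraries alone. Such a gene can hardly be called lower. myb of series M had reads in 8 of 18 CHT, 2 of 6 neural and 0 of 12 muscle libraries. The counts against muscle are thus partly set by the filter, which all genes tested passed alike. In a fit to the differences of each section between the compared regions alone, the series M calls of gata2a, lmo2 and spi1b were lost. The middle of all genes lay above 0 in this comparison, at 0.71 in series M and 0.65 in series Z.

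Against neural tissue the called genes of series Z went in both directions. In series M only cebpa was called, and it was higher in the CHT, where 2.52% of all genes were called higher and 26.5% lower. In series Z cebpa, lmo2 and ikzf1 were called higher and gata2a and tal1 lower. Of all genes in series Z, 5.51% were called higher and 22.6% lower. The share of the tested factors called lower in series Z was thus about that of all genes. The middle of all genes lay below 0, at -0.91 in series M and -0.65 in series Z. Of 16 skeletal muscle genes, 13 were called higher in the CHT in series M and 0 in series Z. The part of muscle RNA in this comparison was not tested. Between neural tissue and muscle, gata2a, tal1 and lmo2 were called higher in neural tissue in both series. Of all genes, 49.1% (series M) and 41.8% (series Z) were called higher. The share of the tested factors called higher was below that of all genes in both series. The middle of all genes was at 1.63 and 1.32. Under quantile scaling, which sets the middle of this comparison to -0.11 in series M, none of the 3 was called in series M, and lmo2 had a difference of -0.39.

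Quantile scaling makes the spread of levels equal in all libraries, and it moved the split of all called genes. Of the genes called between the CHT and muscle, 78.2% (series M) and 84.3% (series Z) were higher in the CHT, and with that scaling 36.6% and 52.7%. Between the CHT and neural tissue the shares were 8.7% and 19.6%, and with that scaling 31.5% and 40.3%. Between neural tissue and muscle 93.8% and 92.3% were higher in neural tissue, and with that scaling 60.8% and 65.1%. Of the 10 genes, 2 were then called against muscle in series M and 7 in series Z, all higher in the CHT. A fit of limma-voom to the recovered reads called 15486 of 18263 genes between the CHT and muscle of series M, 94.4% of them higher in the CHT, with all 7 tested genes among them. Against neural tissue of series M, 37.8% of its called genes were higher in the CHT.

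**Figure D3:**
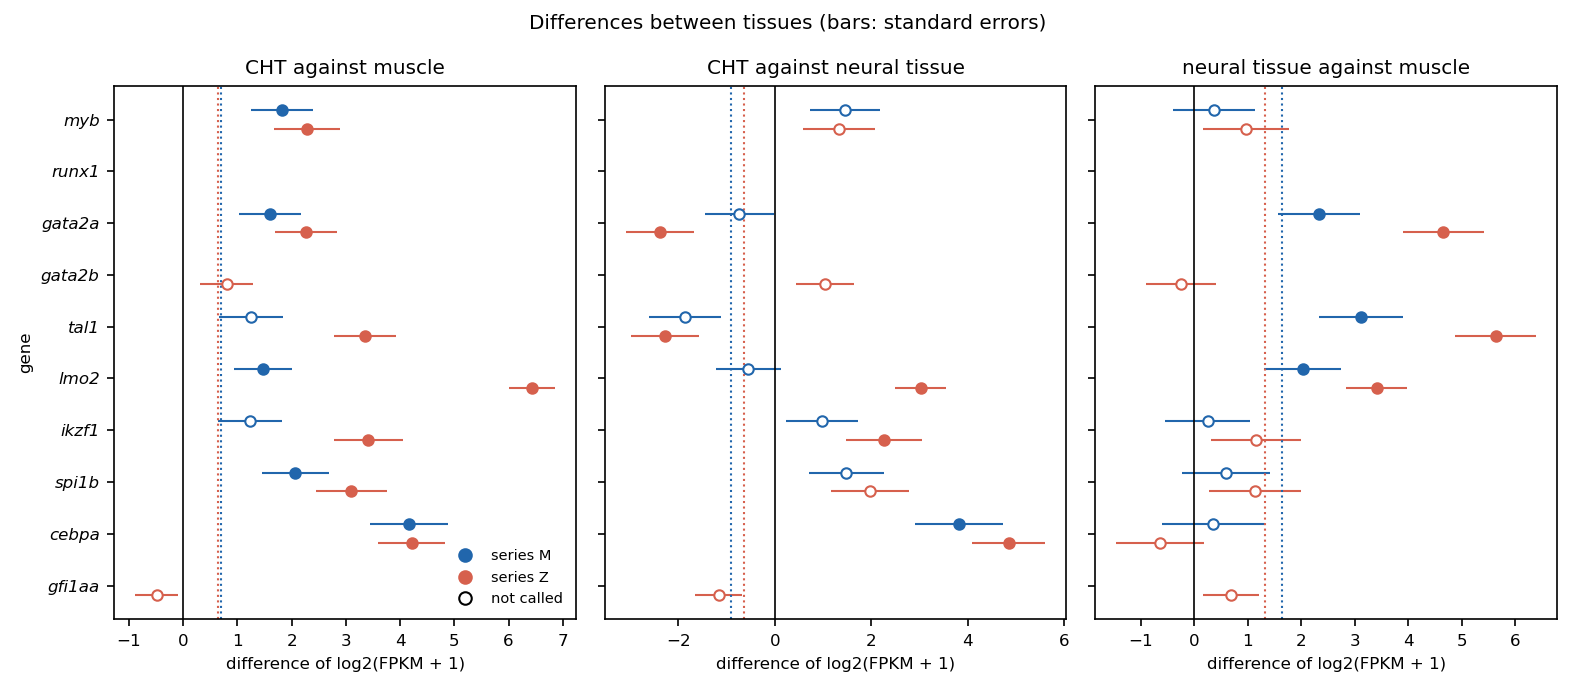
Differences of log2(FPKM + 1), with standard errors, for each tested gene in the CHT against muscle, the CHT against neural tissue and neural tissue against muscle, by series. Filled points are called, open points are not, and dotted lines mark the median of all genes tested. cebpa lies far right of the dotted lines in both CHT comparisons, and gata2a and tal1 lie below 0 against neural tissue and above 0 against muscle.

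**Figure D4:**
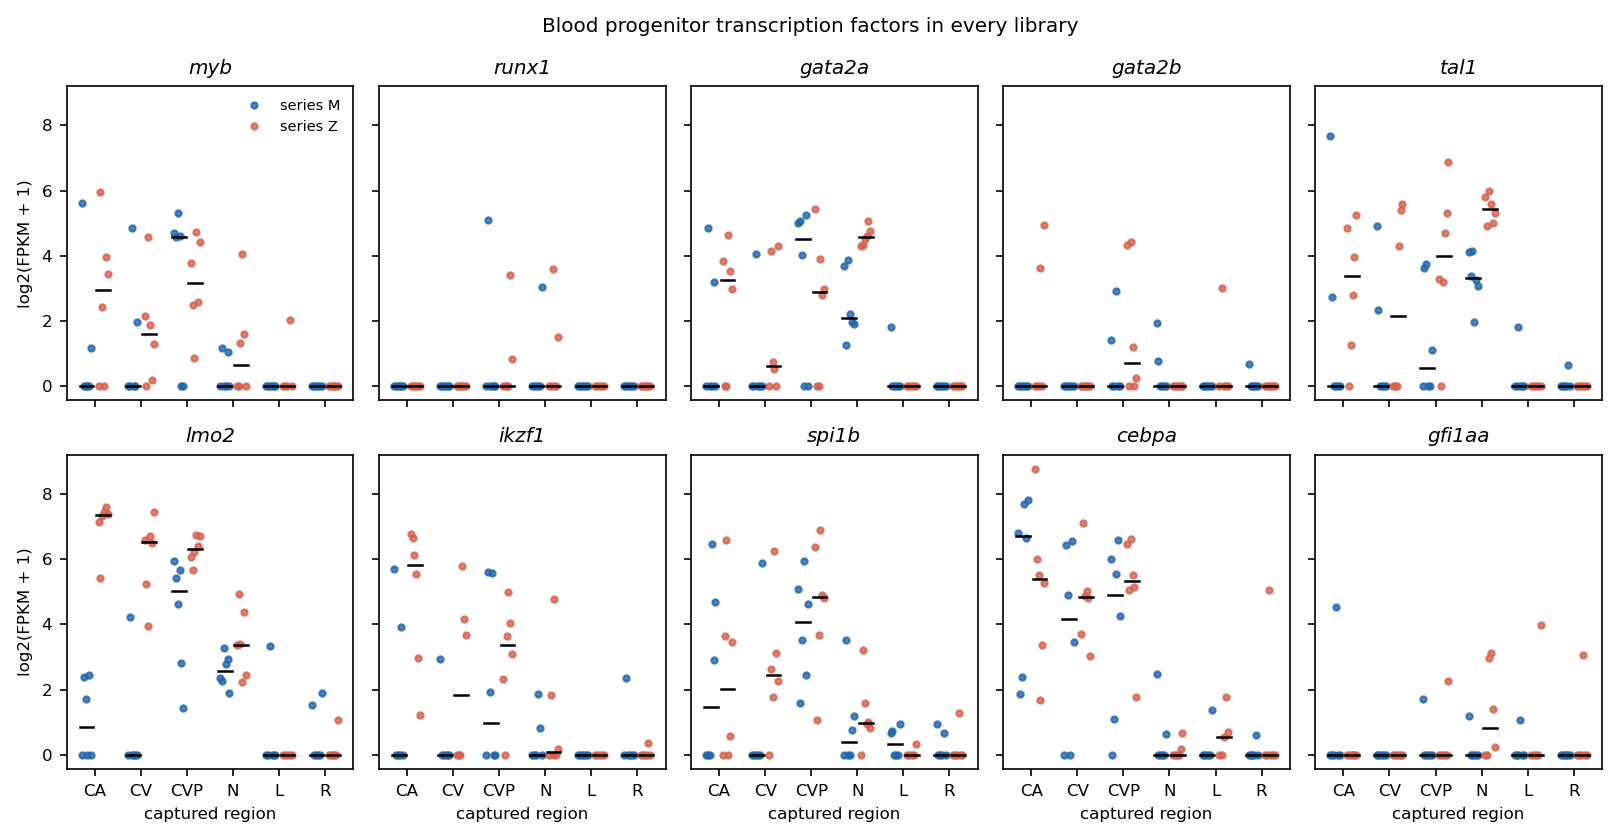
log2(FPKM + 1) of the 10 genes in every library, by captured region. Points are libraries, blue for series M and red for series Z, and black lines are group medians. Most points of runx1, gata2b and gfi1aa lie at 0, and the lmo2 points of CA all lie higher in series Z than in series M, while those of CV overlap.

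myb encodes a DNA-binding factor needed for definitive blood stem cells. In series M its FPKM in CVP was 24.8, 22.7, 38.4 and 23.3 at layers 2, 6, 8 and 12 and 0 at layers 15 and 17. CA ranged from 0 to 48.5 with a median of 0, and CV from 0 to 27.7 with a median of 0. In N it had 2 libraries above 0, at 1.24 and 1.05, and all 12 muscle libraries were at 0. The CVP libraries of the first 4 layers thus lay above every neural and muscle library of that series.

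In series Z myb had reads in 15 of 18 CHT libraries. CA had a lowest, median and highest FPKM of 0, 7.16 and 61.6, CV of 0, 2.07 and 23.0, and CVP of 0.805, 8.79 and 25.4. N had 0, 0.748 and 15.6, and overlapped all 3. Of the muscle libraries, the left one of layer 22 alone had reads, at 3.12 FPKM.

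The CHT exceeded muscle in myb by 1.82 ± 0.57 (SE; limma adjusted p = 0.0172) in series M and by 2.28 ± 0.61 (limma adjusted p = 0.00526) in series Z. The mean of the vascular captures was higher in 5 of 6 sections of series M, with 1 equal, and in 6 of 6 of series Z. The differences from neural tissue, 1.45 ± 0.72 and 1.33 ± 0.74, were not called. Without layer 8 the series M call against muscle was lost, at a difference of 1.34. It was also lost with a covariate for how many genes a library detected.

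runx1, the partner of Cbfb at the start of definitive blood, was seen in series M at 33.3 FPKM in CVP of layer 6 and 7.15 FPKM in N of layer 17. Those were 3 and 2 reads. In series Z it stood at 9.74 and 0.777 FPKM in CVP of layers 22 and 25 and at 10.98 and 1.84 FPKM in N of layers 10 and 25, from 8, 1, 2 and 3 reads. No read fell in CA, CV or muscle in either series.

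A single read of runx1 weighs much in FPKM, and a library with none allows up to 3 reads. In right muscle of series M the lowest such limit was 7.58 FPKM for runx1 and 1.03 FPKM for myb. The length used for runx1 is thus shorter, and whether it covers the whole gene was not tested. For the 17 CHT libraries of series M at 0 that limit was 13.6 to 88.4 FPKM, with a median of 51.1. For the 16 of series Z it was 1.65 to 37.4 FPKM, with a median of 9.84. At 0 reads, a level of runx1 up to its limit cannot be told from absence in that library. These limits cover counting error only, and PCR copies are not independent molecules.

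cbfb, whose product binds DNA with Runx1, was looked up after its values were seen. Its difference from muscle was 2.14 ± 0.60 (limma adjusted p = 0.00767) in series M and 3.44 ± 0.51 (limma adjusted p = 4.13e-06) in series Z. Of all genes, 19.1% (series M) and 22.1% (series Z) were called higher there. cbfb also stands in the list of other blood factors below.

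gata2a and gata2b are the zebrafish copies of mammalian GATA2, a factor of stem cells and endothelium. gata2a had reads in all 12 neural libraries. In N its FPKM had a lowest, median and highest of 1.39, 3.28 and 13.5 in series M and of 18.8, 22.7 and 32.8 in series Z. In muscle it was at 0 in all 11 libraries of series Z, and in series M the left muscle of layer 2 alone had reads, at 2.53 FPKM. Neural tissue and muscle overlapped in series M by that library and did not overlap in series Z.

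In the vascular captures gata2a was uneven. In series M CVP held 31.1, 32.2, 15.4 and 36.8 FPKM at layers 2, 6, 8 and 15 and 0 at layers 12 and 17, CA held 28.0 and 8.24 FPKM at layers 6 and 15, and CV 15.5 FPKM at layer 8. In series Z CA had a lowest, median and highest FPKM of 0, 8.76 and 24.1, CV of 0, 0.554 and 18.8, and CVP of 0, 6.41 and 42.3. These 3 ranges overlapped each other, and those of CA and CVP reached into that of N.

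gata2a rose in the CHT against muscle by 1.60 ± 0.57 (limma adjusted p = 0.0372) in series M and 2.27 ± 0.58 (limma adjusted p = 0.00342) in series Z. Against neural tissue it was lower in series Z, with a difference of -2.39 ± 0.70 (limma adjusted p = 0.00942), in 6 of 6 sections. In series M the difference was -0.74 ± 0.72, above the middle of all genes, and not called. The series Z call was lost without layer 10, with quantile scaling and with a covariate for how many genes a library detected. The call against muscle in series M was lost in 9 of 15 alternative settings, 3 of them a section left out. That in series Z was lost with the covariate alone.

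gata2b had at most 3 reads in any library of series M, in 2 CVP, 2 N and 1 R libraries, the highest at 6.60 FPKM. In series Z it stood at 11.3 and 30.1 FPKM in CA of layers 19 and 25, the latter from 210 reads, and at 19.0, 20.5, 1.28 and 0.180 FPKM in CVP of layers 1, 10, 19 and 25. CV and N were at 0 in all 6 libraries each, and of muscle the left library of layer 10 alone had reads. Its differences in series Z, 0.80 ± 0.50 from muscle and 1.04 ± 0.60 from neural tissue, were not called.

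tal1 encodes a helix-loop-helix factor at the root of blood and also a factor of spinal interneurons. Its highest level in series M was 203 FPKM, in CA of layer 2, from 50 reads, and the other CA libraries had 5.71 FPKM at layer 6 and 0 elsewhere. CV held 29.1 and 4.02 FPKM at layers 2 and 6, and CVP 11.4, 12.4 and 1.17 FPKM at layers 6, 8 and 17. N had reads throughout, from 2.89 to 16.7 FPKM with a median of 8.97. N overlapped the vascular captures in series M, while muscle stayed at or under 2.51 FPKM.

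In series Z N ranged from 29.1 to 62.0 FPKM with a median of 42.8. CA had a lowest, median and highest FPKM of 0, 10.3 and 36.9, CV of 0, 9.43 and 46.8, and CVP of 0, 16.8 and 118. All 11 muscle libraries were at 0. Most vascular libraries thus lay below every neural one, and the CVP library of layer 25, at 118 FPKM, lay above them all.

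Against muscle, tal1 was higher in the CHT of series Z by 3.36 ± 0.57 (limma adjusted p = 3.57e-05). In series M the difference was 1.25 ± 0.59 (limma adjusted p = 0.115). Against neural tissue it was lower in series Z, with a difference of -2.28 ± 0.70 (limma adjusted p = 0.0126), in 5 of 6 sections. In series M it was -1.87 ± 0.74 (limma adjusted p = 0.0555), also lower in 5 of 6 sections. The series Z call against neural tissue was lost without layer 6 or 10, with the covariate and with limma-voom, a fit to the recovered reads. Neural tissue exceeded muscle by 3.11 ± 0.79 (limma adjusted p = 0.00155) in series M and by 5.63 ± 0.75 (limma adjusted p = 2.02e-07) in series Z.

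The neural level of gata2a and tal1 stood beside that of a list of 15 genes of spinal interneurons, among them gata3, tal2, gad2 and slc32a1. gata3 also stands in the list of other blood factors below. Of the 13 tested, 11 were called higher in neural tissue than in muscle in series M, where 49.1% of all genes were, and 13 in series Z, where 41.8% were. Of a general neural list, 16 of 16 were called higher in each series, so such a count is not particular to interneuron genes. tal2, a relative of tal1, exceeded muscle by 4.40 ± 0.78 and 5.26 ± 0.57, and slc32a1, the carrier that fills vesicles with GABA and glycine, by 6.18 ± 0.65 and 6.95 ± 0.50. In the CHT none of the 13 was called higher than in muscle in either series. By unadjusted limma p, 0 and 1 were higher at under 0.05. The summed FPKM of all 15 had medians of 64.0, 123 and 48.7 in CA, CV and CVP of series M. In L and R of that series the medians were 8.14 and 8.27. In series Z the vascular medians were 11.3, 23.9 and 24.5, against 12.0 and 7.38 in L and R. Whether gata2a and tal1 in N come from such cells was not tested.

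lmo2 encodes a bridging protein without DNA binding of its own that joins Tal1 to Gata factors. It had the highest reads of the 10 genes in series Z, 4526, against 136 in series M. In series Z CA had a lowest, median and highest FPKM of 42.4, 163 and 194, CV of 14.4, 92.2 and 172, and CVP of 50.4, 78.9 and 107. N followed with 3.74, 9.44 and 29.5. Right muscle of layer 25 held 1.08 FPKM and the other 10 muscle libraries were at 0. CA, CV and CVP overlapped each other, N overlapped CV by the library of layer 10, and no muscle library reached a neural one.

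The level of lmo2 in series M was high in CVP, at 60.2, 41.7, 23.5 and 50.03 FPKM in layers 2, 6, 8 and 12 and 6.04 and 1.71 FPKM in layers 15 and 17. CA had a lowest, median and highest FPKM of 0, 1.14 and 4.50, and CV held 17.7 FPKM at layer 6 and 0 elsewhere. N ranged from 2.69 to 8.69 FPKM with a median of 5.03. The first 4 CVP libraries lay above every other library of series M. Each non-zero CA or CV value rests on 1 to 3 reads, and the libraries of the CHT at 0 allow up to 3.41 to 22.1 FPKM.

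The CHT exceeded muscle in lmo2 by 6.43 ± 0.43 (limma adjusted p = 1.61e-13) in series Z, in 6 of 6 sections. In series M the excess was 1.47 ± 0.53 (limma adjusted p = 0.0393), in 5 of 6 sections, and it was lost in 9 of 15 alternative settings. Against neural tissue the CHT was higher in series Z by 3.02 ± 0.52 (limma adjusted p = 2.10e-05). In series M the difference was -0.55 ± 0.67 and not called. All 16 alternatives kept the series Z call against muscle, and all 15 kept that against neural tissue.

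The series differed in lmo2 by the test of the difference itself. The CHT excess over muscle was 4.96 ± 0.67 greater in series Z than in series M (limma adjusted p = 4.99e-06), and that over neural tissue 3.57 ± 0.83 greater (limma adjusted p = 0.0304). lmo2 was the only gene called of the 7 tested in both, where 0.629% and 0.328% of all 15571 genes were called in either direction. The difference against neural tissue was lost in 15 alternative settings, limma-voom, thinning to the shallowest library and 9 single sections left out among them. The difference against muscle was kept in all of them. With limma-voom the middle of all genes in that difference lay at -1.16.

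Of 17 erythroid genes, 11 (against muscle) and 7 (against neural tissue) were called with a greater CHT excess in series Z. Of all genes 0.629% and 0.328% were called in either direction. Of 17 endothelial genes 0 were called in both. Of 11 neutrophil genes 1 and 0 were called, and of 12 leukocyte genes 0 and 1. Of 6 macrophage and 7 thrombocyte genes 0 were called. Of 16 skeletal muscle genes 0 were called against muscle, and 3 against neural tissue, lower in series Z than in series M. At an unadjusted limma p under 0.05, 14 and 13 erythroid, 6 and 7 endothelial and 4 and 5 neutrophil genes had a greater excess. So did 1 and 4 leukocyte and 0 and 1 macrophage genes. The excess was smaller in series Z in 2 and 12 skeletal muscle, 3 and 0 thrombocyte and 0 and 1 macrophage genes. The summed FPKM of 18 erythroid genes had medians of 346, 352 and 1643 in CA, CV and CVP of series M and of 116439, 27479 and 28938 in series Z. The summed FPKM of 18 endothelial genes had medians of 799, 192 and 1668 in series M and of 1520, 1340 and 1548 in series Z. Median reads of CA, CV and CVP were 127739, 106508 and 267961 in series M. The same medians of series Z were 589944, 857310 and 962328. In CV of series M, 4 of the 18 endothelial and 3 of the 18 erythroid genes were at 0 in every library. The part of these in the lmo2 difference was not tested.

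ikzf1 encodes Ikaros, a zinc finger factor of lymphoid progenitors that is also read in other blood cells. In series Z all 6 CA libraries had reads, with 108, 99.8, 68.6, 46.1, 6.83 and 1.34 FPKM at layers 1, 6, 10, 19, 22 and 25. CV was at 0 in layers 1, 6 and 10 and at 54.7, 16.9 and 11.7 FPKM in layers 19, 22 and 25. CVP had a lowest, median and highest FPKM of 0, 9.54 and 30.8. Within CA, each layer was lower than the one before it, while in CV the reads lay in the 3 highest layer numbers.

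N held 26.4 FPKM of ikzf1 at layer 19 of series Z and at most 2.57 FPKM elsewhere, and muscle held 1 read in 11 libraries. In series M reads were seen in CA at 51.2 and 14.1 FPKM (layers 2 and 15), in CV at 6.69 FPKM (layer 2) and in CVP at 48.0, 2.84 and 46.7 FPKM (layers 6, 8 and 12). The other 12 CHT libraries of series M were at 0.

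In series Z the CHT exceeded muscle in ikzf1 by 3.42 ± 0.64 (limma adjusted p = 0.000133), kept in all 16 alternatives. It exceeded neural tissue by 2.26 ± 0.78 (limma adjusted p = 0.0276). That second call was lost in 7 of 15 alternatives, among them 4 single sections left out and the fit without the libraries that resembled another region. In series M the differences were 1.23 ± 0.59 (limma adjusted p = 0.12) and 0.98 ± 0.74. Both were positive and not called.

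spi1b encodes Pu.1, the Ets factor that leads progenitors to the myeloid fate. All 6 CVP libraries of both series had reads. In series M CVP had a lowest, median and highest FPKM of 2.03, 17.1 and 60.8, and in series Z of 1.11, 27.9 and 117. CA held 87.3, 6.57 and 24.7 FPKM at layers 12, 15 and 17 of series M and 0 at the other layers, and CV 58.3 FPKM at layer 17 alone. CVP was the one vascular capture in which spi1b was never at 0.

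In series Z CA of spi1b had a lowest, median and highest FPKM of 0, 5.29 and 96.4, and CV of 0, 4.53 and 76.2. N ranged from 0 to 10.6 FPKM in series M and from 0 to 8.35 FPKM in series Z. Muscle stayed at or under 1.45 FPKM in all 23 libraries. N overlapped every vascular capture, and muscle the lowest of them.

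spi1b rose in the CHT against muscle by 2.07 ± 0.61 (limma adjusted p = 0.0121) in series M and by 3.10 ± 0.66 (limma adjusted p = 0.000579) in series Z, in 6 of 6 sections of each. Against neural tissue the differences of 1.48 ± 0.78 and 1.97 ± 0.80 were not called. The series M call against muscle was lost without layer 12 or 17, with quantile scaling and with the covariate. It was also lost in section differences of the compared regions alone. The series Z call against muscle was lost with the covariate alone.

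cebpa encodes a leucine zipper factor of granulocyte and macrophage formation. In series M CA held 112, 2.62, 4.28, 206, 98.8 and 226 FPKM in the order of the layers. CV had a lowest, median and highest FPKM of 0, 19.3 and 92.5, and CVP of 0, 32.2 and 94.6. N stayed at or under 4.54 FPKM and muscle at or under 1.62 FPKM. The vascular libraries at 0 or near it overlapped neural tissue and muscle, and the other vascular libraries lay above both.

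In series Z every vascular library held cebpa. CA had a lowest, median and highest FPKM of 2.2, 41.1 and 436, CV of 7.17, 27.9 and 138, and CVP of 2.44, 39.7 and 97.4. N stayed at or under 0.578 FPKM, below all vascular libraries. In muscle the right library of layer 10 stood out with 32.7 FPKM from 53 reads, and the other muscle libraries stayed at or under 2.44 FPKM.

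cebpa was called in every comparison of the CHT with another tissue. The CHT exceeded muscle by 4.17 ± 0.72 (limma adjusted p = 3.20e-05) in series M and 4.22 ± 0.62 (limma adjusted p = 3.76e-06) in series Z. It exceeded neural tissue by 3.82 ± 0.91 (limma adjusted p = 0.00139) and 4.85 ± 0.76 (limma adjusted p = 4.04e-06). Each of the 4 differences was positive in 6 of 6 sections. Of their alternative settings, only the covariate of detected genes in series M against neural tissue lost a call, at 4.04 (limma adjusted p = 0.507).

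gfi1aa encodes a zinc finger repressor that in the zebrafish acts in early red cells and in blood-forming endothelium. In series M it had reads in CA of layer 12, at 22.2 FPKM from 3 reads, and 1 read each in a CVP, an N and an L library. In series Z CA and CV were at 0 in all 12 libraries, and CVP had 3.84 FPKM at layer 25 alone. N held 6.78, 7.68, 1.67 and 0.190 FPKM at layers 10, 19, 22 and 25, and the left muscle of layer 25 and the right of layer 19 held 14.7 and 7.37 FPKM. Its highest values in series Z thus lay outside the vessels.

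The differences of gfi1aa in series Z were -0.48 ± 0.40 from muscle and -1.16 ± 0.48 from neural tissue, and neither was called. With a pseudocount of 0.1 the second was called at -2.72.

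Within the vessels few differences passed the test. In series M lmo2 was higher in CVP than in CA by 3.22 ± 0.82 (limma adjusted p = 0.0229), the 1 gene of 7 called where 3.37% of all genes were called in either direction. It was also higher in CVP than in CV, by 3.61 ± 0.82 (limma adjusted p = 0.00756), again 1 of 7, where 4.9% of all genes were called. Both calls were lost without layer 2, without layer 12, with limma-voom, with quantile scaling, with the covariate and in section differences of the compared regions alone. The first was also lost without layer 8 and with a pseudocount of 0.1.

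In series Z lmo2 differed by -0.75 ± 0.64 between CVP and CA and by 0.24 ± 0.64 between CVP and CV, and neither was called. Of the 9 genes tested there, 0 were called in CVP against CA and 0 in CVP against CV, where 4.45% and 0.441% of all genes were, and 1 gene each had an unadjusted p under 0.05. Between CV and CA 0 genes were called in either series, where 2.67% (series M) and 4.3% (series Z) of all genes were. By unadjusted p, 0 and 1 were under 0.05, and the 1 was ikzf1, lower in CV of series Z with a difference of -2.61 ± 0.96 (limma adjusted p = 0.13). It was called without layer 25. Without the libraries that resembled another region, 3 genes were called in CVP against CV of series M.

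By unadjusted p, myb (2.06 ± 0.88), gata2a (2.55 ± 0.88) and spi1b (2.89 ± 0.95) also stood higher in CVP than in CV of series M. Their adjusted p-values were 0.169, 0.084 and 0.0673 by limma. Markers of several cell types moved with this comparison, in which 4.9% of all genes were called in either direction. In CVP against CV of series M, 10 of 17 endothelial, 6 of 16 skeletal muscle, 4 of 11 neutrophil, 3 of 12 leukocyte, 2 of 17 erythroid and 1 of 7 thrombocyte genes were called higher. In series Z 0.441% of all genes were called in either direction. There 2 of 12 neutrophil and 1 of 10 thrombocyte genes were called higher. None of the 18 endothelial, 16 skeletal muscle, 13 leukocyte or 18 erythroid genes were. At an unadjusted limma p under 0.05, 8 neutrophil, 3 thrombocyte, 1 endothelial, 3 skeletal muscle, 4 leukocyte and 4 erythroid genes were higher. Their part in the results was not tested.

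Along the layers, 0 of the 10 genes had a called trend in the mean of the vascular captures, and 0% of all genes did in either series. The unadjusted p was under 0.05 for 1 gene in series M and 2 in series Z. limma-voom called 1 falling gene in each series, tal1 in series M and cebpa in series Z, and without layer 1 tal1 was called as rising in series Z. tal1 changed by -0.28 ± 0.08 per layer number in series M (limma adjusted p = 0.854) and by 0.19 ± 0.05 in series Z (limma adjusted p = 0.395), in opposite directions. cebpa changed by -0.12 ± 0.03 per layer number in series Z (limma adjusted p = 0.357) and by 0.17 ± 0.09 in series M. The labels do not say in which direction the layer numbers run, or that they match between the series.

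**Figure D5:**
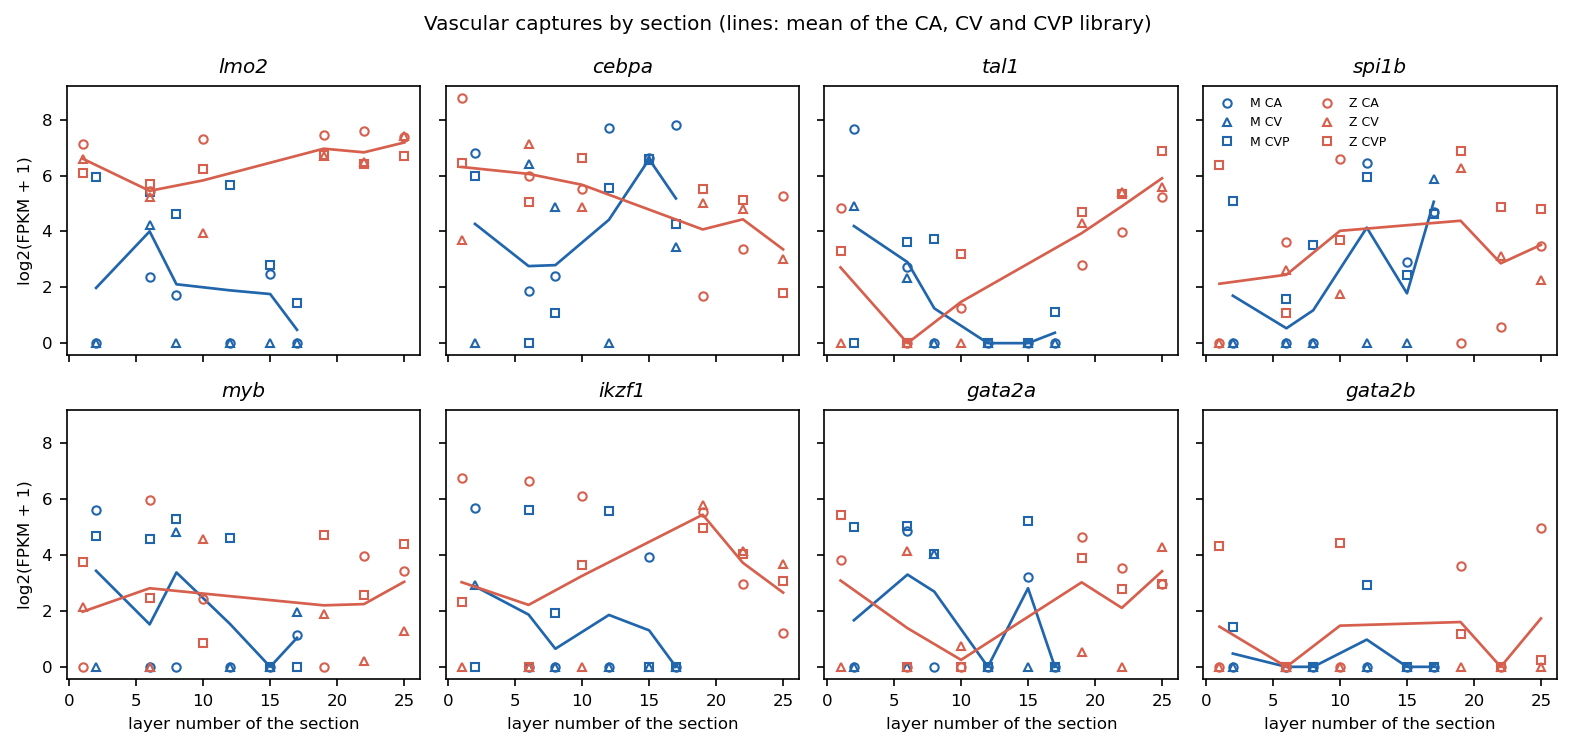
log2(FPKM + 1) of 8 genes in the CA (circles), CV (triangles) and CVP (squares) libraries against the layer number of the section, blue for series M and red for series Z. Lines join the mean of the 3 captures of a section. The tal1 line falls over the layers of series M and rises from layer 6 to 25 in series Z, and neither trend was called.

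The 10 genes are unequal in level. Per length, the median FPKM over the 18 CHT libraries of series Z was 99.6 for lmo2, 33.4 for cebpa, 11.7 for tal1, 11.7 for ikzf1, 8.87 for spi1b, 6.41 for gata2a and 4.50 for myb, and 0 for gata2b, runx1 and gfi1aa. In series M it was 37.5 for cebpa, 3.22 for spi1b and 1.99 for lmo2, and 0 for the others. The ranges of neighbours in both orders overlapped.

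Library by library, the genes went only loosely together. Over the 18 CHT libraries of series Z the highest Pearson correlation between any 2 of them was 0.61, for tal1 and lmo2, which had reads together in 13 libraries. In series M it was 0.57, for gata2b and lmo2, which had reads together in 2. myb and spi1b had reads together in 14 libraries of series Z and 6 of series M. The libraries share depth and sections, and at these few reads a weak correlation says nothing.

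For each gene with reads in at least 6 libraries of both series, the genes of most like pattern were taken by the lower of both series' Pearson correlations of log2(FPKM + 1), over 36 and 35 libraries and among 13478 genes. For lmo2 these were stab1, a scavenger receptor of endothelium and macrophages (0.70 in series M and 0.72 in series Z), mfng and lgmn. For spi1b they were mrc1a (0.70 and 0.69), stab2 and vsg1, of which mrc1a and stab2 mark venous endothelium in the zebrafish. For cebpa they were cdh5, the cadherin of endothelial junctions (0.69 and 0.75), col4a1 and sat1a.1.

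For ikzf1 the most like were hbae1, an alpha globin (0.65 and 0.76), slc29a1b and fli1a. For myb they were rnf213a (0.66 and 0.67), trim33l and mtmr8. tal1 went with ccnh (0.72 and 0.77), atp6ap1lb and dbn1, and gata2a with syt11a (0.65 and 0.68), ntrk2b and pbk. The tissues differ widely in all genes, so these correlations follow the regions as well as any likeness within them, and they carry no test.

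Other regulators of blood were seen in a list of 35 factors, 29 of them in the tables. Of those tested against muscle, 10 of 23 were called higher and 1 lower in series M, and 13 of 27 higher and none lower in series Z, beside 19.1% and 22.1% of all genes called higher. Their median differences were 1.13 and 1.45, beside 0.71 and 0.65 for all genes. fli1a, an Ets factor of endothelium and blood precursors, was higher by 3.48 ± 0.54 and 6.13 ± 0.50, and cebpb, a relative of cebpa, by 4.33 ± 0.66 and 3.90 ± 0.76. etv2, the Ets factor at the start of vessels and blood, was higher by 3.45 ± 0.74 and 3.76 ± 0.62.

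Against neural tissue 5 of 23 of these factors were called higher and 5 lower in series M, where 2.52% of all genes were called higher and 26.5% lower. In series Z 11 of 27 were called higher and 3 lower, where 5.51% and 22.6% of all genes were. cebpb was higher by 3.78 ± 0.83 and 4.72 ± 0.93 and fli1b by 2.22 ± 0.71 and 4.78 ± 0.56. fli1a, etv2 and erg also stand in the endothelial list, and gata1a and klf1 in the erythroid one.

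Lists of genes of the mature cells that the myeloid factors lead to were compared in the same way. Against muscle, 19.1% (series M) and 22.1% (series Z) of all genes were called higher in the CHT. Of a neutrophil list, 5 of 11 (series M) and 10 of 12 (series Z) were called higher in the CHT than in muscle, with mpx, the myeloperoxidase, higher by 1.46 ± 0.50 and 3.67 ± 0.49. Of a macrophage list, 2 of 9 and 3 of 8 were called higher, with ctsc by 2.05 ± 0.71 and 2.80 ± 0.58. Of genes shared by leukocytes, 6 of 12 and 8 of 13 were called higher, with coro1a, which binds actin in leukocytes, by 1.85 ± 0.60 and 3.49 ± 0.64. No gene of these 3 lists was called lower than in muscle, and the 2 of 9 macrophage genes of series M are near the share of all genes. Against neural tissue of series M, 0 of 11 neutrophil, 0 of 9 macrophage and 1 of 12 leukocyte genes were called higher in the CHT, and 1, 0 and 1 lower, where 2.52% of all genes were called higher. At an unadjusted limma p under 0.05 the higher ones were 2, 0 and 2. In series Z 7 of 12, 1 of 8 and 7 of 13 were called higher and 0, 1 and 0 lower, where 5.51% of all genes were called higher.

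Of an erythroid list, 8 of 17 were called higher and 1 lower than in muscle in series M, and 18 of 18 higher in series Z, again beside 19.1% and 22.1% of all genes. Of a thrombocyte list, 3 of 7 and 5 of 10 were called higher. Of the endothelial list, 13 of 17 and 17 of 18 were, with cdh5 by 4.76 ± 0.49 and 5.02 ± 0.43. A laser capture holds every cell type inside its outline, so which of these cells carry the RNA of the 10 factors was not tested.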

How the data were processed

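The deposited values are FPKM, made by the authors, in 1 table per series with 25067 protein-coding genes and 36 libraries each, and the number of columns with no library was 0. In the submitters' processing notes the tools are FastQC, HISAT, HTSeq and DESeq2, the build is GRCz10, and roles and versions are not given. Per the labels' protocols, polyadenylated RNA was amplified by a PCR of single-cell kind and made into libraries with a kit that does not mark strand, so reads of overlapping antisense genes cannot be told apart, and no molecular identifiers are named. The PCR copies are thus counted as reads, and intervals and limits cover counting error only.

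Whole reads were recovered from the FPKM steps for every gene above 0, 23948 of them in series M and 23482 in Z (the largest distance from a whole number was 4.74e-07 and 6.80e-07 of a read). They give the depth, the limits of 3 reads for a 0 and the count alternative. FPKM is relative to the library total, so the level of a gene also moves with what the other genes of its library take up.

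limma 3.58.1 in R 4.3.3 was fitted to log2(FPKM + 1), each series alone, with terms for region and section. Genes reaching FPKM 1 in 6 or more libraries entered (18263 in series M, 16547 in series Z and 15571 in the joint fit of both), all regions shared 1 spread per gene, and p-values are two-sided with Benjamini-Hochberg adjustment over all genes tested. The block is the section, from which all 6 regions were captured. The layer trend used 1 value a section, the average of its vascular captures. The test was tried on simulated data with known changes, and no conclusion here rests on that trial. How the test behaves for genes with few reads, or for sections of a common embryo, was not tested. Tables were handled in Python 3.11.15 with pandas 2.3.3 and numpy 2.4.6.

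The 10 genes, the marker lists and the tests were chosen with earlier results of these data known. Besides the 10, the text names up to 4 genes of each list called alike in both series, or up to 2 called in 1 series, by size of change, and the 3 genes of most like pattern for each of the 10 with reads in enough libraries. It names part of these, and cbfb outside this rule. The annotation at hand is of another genome build, so no positions or sequences are given.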

Additional observations from a re-analysis of the deposited data

Results flagged for a closer look

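In 36 groups of 5 or 6 libraries the highest or lowest library stood apart from the rest by a wide gap. Values of a normal spread pass the limit used in about 1 of 20 groups. That rate does not hold for groups with many libraries at 0. Of the 36 libraries 34 were high, and most of those were the only library of their group with reads or nearly so. The gap then says little more than that the gene was at 0 elsewhere. Values are FPKM, with the layer.

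In the vascular captures of series M the high libraries were myb at 48.5 and tal1 at 202.8 (CA, layer 2), gfi1aa at 22.2 (CA, layer 12), gata2a at 15.5 (CV, layer 8), lmo2 at 17.7 (CV, layer 6), ikzf1 at 6.69 (CV, layer 2), spi1b at 58.3 (CV, layer 17), runx1 at 33.3 (CVP, layer 6) and gfi1aa at 2.25 (CVP, layer 2). The CA library of layer 2 thus held the highest myb and tal1 of the series. In series Z they were runx1 at 9.74 (CVP, layer 22) and gfi1aa at 3.84 (CVP, layer 25). The low libraries were lmo2 at 42.4 (CA, layer 6) and cebpa at 2.44 (CVP, layer 25), both in series Z.

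In neural tissue the high libraries of series M were runx1 at 7.15 (layer 17), spi1b at 10.6 (layer 6), cebpa at 4.54 (layer 2) and gfi1aa at 1.28 (layer 2). In series Z cebpa stood at 0.578 (layer 25).

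In muscle of series M the left side had gata2a at 2.53 (layer 2), tal1 at 2.51 and lmo2 at 9.20 (layer 8), cebpa at 1.62 (layer 17) and gfi1aa at 1.11 (layer 12). The right side had gata2b at 0.584 (layer 2), tal1 at 0.554 and cebpa at 0.508 (layer 15) and ikzf1 at 4.18 (layer 6). In series Z the left side had myb at 3.12 (layer 22), gata2b at 7.12 (layer 10), spi1b at 0.248 and gfi1aa at 14.7 (layer 25). The right side had lmo2 at 1.08 (layer 25), ikzf1 at 0.296 (layer 22), spi1b at 1.45 and gfi1aa at 7.37 (layer 19) and cebpa at 32.7 (layer 10). The last rests on 53 reads and gfi1aa at layer 25 on 35, and most of the other muscle values on 1 to 6.

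The CHT excess of lmo2 differed between the series by the test of that difference, with 4.96 over muscle and 3.57 over neural tissue in series Z beyond series M.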

How the results depend on the processing

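Counts are of the 10 genes called by limma. Without the section as a block the counts were the same in all 14 comparisons that had one, 5 and 7 against muscle among them. CHT against muscle in series M, 5 genes, gave 1 with a covariate for the detected genes of a library, 3 with a pseudocount of 0.1 or thinned to the shallowest library, and 2 with quantile scaling or section differences of the compared regions alone. It gave 7 with limma-voom and 6 without the libraries closest to another region. Against muscle in series Z, the calls of gata2a and spi1b were lost with the covariate, and no other setting lost a call. CHT against neural tissue in series M, 1 gene, gave 4 with limma-voom on recovered reads and 2 with a pseudocount of 0.1, quantile scaling, section differences or without the libraries closest to another region. With the covariate the 1 gene was spi1b, not cebpa. In series Z, 5 genes, it gave 3 with the covariate, and with quantile scaling again 5, spi1b among them and gata2a not. Neural tissue against muscle, 3 genes in each series, gave 0 with the covariate, 0 with quantile scaling and 1 thinned in series M, and 1 with the covariate in series Z. The trends, 0 genes, gave 1 with limma-voom in each series. CVP against CA in series M, 1 gene, gave 0 with the covariate, limma-voom, a pseudocount of 0.1, quantile scaling or section differences. CVP against CV, 1 gene, gave 0 with the covariate, limma-voom, quantile scaling or section differences, 2 with a pseudocount of 0.1 and 3 without the libraries closest to another region. The difference between the series against neural tissue, 1 gene, gave 0 with the covariate, limma-voom, a pseudocount of 0.1, quantile scaling, thinning or without the libraries closest to another region. The last, the thinning and the kept left muscle library of layer 6 were chosen after seeing the data. With single sections left out, the counts ran from 3 to 4 against muscle in series M and stayed at 7 in series Z, from 1 to 2 and 2 to 5 against neural tissue, from 2 to 3 and at 3 for neural tissue against muscle, from 0 to 1 for CVP against CA and 0 to 2 for CVP against CV in series M, from 0 to 1 for CV against CA and for the trend in series Z, and from 0 to 1 for the difference against neural tissue. Differences that changed sign were none of them called in the new direction. Quantile scaling gave -0.44 for cebpa, -0.51 for ikzf1, -0.39 for lmo2, -0.27 for myb and -0.44 for spi1b in series M and -0.33 for gfi1aa and -0.056 for spi1b in series Z, all for neural tissue against muscle, and 0.64 for gata2a and 1.23 for lmo2 for the CHT against neural tissue in series M. The covariate gave -3.97 for myb and -5.61 for spi1b in series M and 0.65 for cebpa and -1.42 for spi1b in series Z for neural tissue against muscle, and 0.32 for gata2a and 0.30 for lmo2 for the CHT against neural tissue in series M. Limma-voom gave 0.27 for lmo2 there and thinning 0.42 for gata2a, and thinning 0 for cebpa and 0 for myb in neural tissue against muscle of series M. In that comparison, over single sections left out, cebpa ran from -0.069 to 0.48 and ikzf1 from -0.075 to 0.54. The cause of these shifts was not tested. Of 441 comparisons of single genes under the other alternatives, 373 kept direction and call, and of 264 with a section left out, 240. A library at 0 allows up to 3 reads, which for runx1 is as much as 88.4 FPKM in the CHT of series M.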
